A study of Mus musculus with 12 samples.

Results

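The genes described here are 43 genes of mitochondrial and peroxisomal fatty acid oxidation, taken by name from the 54532 genes of a count table made by RNA-seq of whole mouse kidneys. All 43 were found in the table and all 43 passed the cutoff on low counts, which 24642 genes passed. The kidneys came from C57BL/6 mice (in the study's methods, a C57BL/6 J background) 18 days old, numbered 19 to 30 in the labels, in 4 groups of 3. The noncystic mice carried 1 Pkd1 allele with the RC missense mutation and 1 working, floxed allele (Pkd1 RC/F, written Pkd1 RC/+). Their Pkd2 was either intact (Pkd2 +/+, mice 19 to 21) or lacked the miR-17 motif of its 3′-UTR on both alleles (Pkd2 Δ17/Δ17, mice 22 to 24). The cystic mice carried the RC allele, a floxed Pkd1 allele and the Ksp-Cre transgene that removes it (Pkd1 RC/-). They again had Pkd2 +/+ (mice 25 to 27) or Pkd2 Δ17/Δ17 (mice 28 to 30). The study's genotypes name this transgene only for the cystic mice. It thus differed together with cystic disease in every comparison of cystic with noncystic kidneys. Every group held the RC allele, and no group was free of Pkd1 mutation. In the cystic mice the second allele was lost only where the Ksp promoter drives Cre. The sources used here do not list the cells in which that happened. The labels do not say in words that the 12 kidneys came from 12 different mice. The study's methods say that its in vivo n counts mice, and it gives n as 3 here. The p-values measure the spread between these samples.

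Fatty acids are bound to coenzyme A by acyl-CoA synthetases, enter mitochondria through the carnitine shuttle, and are shortened there by repeated rounds of dehydrogenation, hydration, dehydrogenation and thiolysis, with electrons leaving through the electron transfer flavoprotein. Peroxisomes run a similar spiral on very long-chain, branched-chain and bile acid precursors, begun by acyl-CoA oxidases whose hydrogen peroxide is removed by catalase. In the kidney the pathway is known above all from the proximal tubule, which draws most of its ATP from fatty acids. The question of the design was how transcripts differ between cystic and noncystic kidneys, and how they differ once Pkd2 is freed of its miR-17 motif.

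Libraries held 18800307 to 24453033 counted reads. The 43 genes took 0.934 to 1.09% of the reads in the noncystic kidneys, 0.531 to 0.603% in the cystic Pkd2 +/+ kidneys and 0.648 to 0.749% in the cystic Pkd2 Δ17/Δ17 kidneys. Levels are given as CPM, read counts scaled to a common library size, here with TMM factors, which adjust for library composition. Pkd2 itself ran from 271 to 286 CPM in noncystic and 307 to 337 CPM in cystic Δ17/Δ17 kidneys, and from 194 to 219 CPM and 213 to 233 CPM in the matching +/+ kidneys, with no overlap between the Pkd2 genotypes within either disease state (log2 fold change 0.40, adjusted p = 0.77 in noncystic and 0.53, adjusted p = 0.0025 in cystic kidneys). Markers of tissues next to the kidney stood high in some libraries. Summed levels of 8 fat markers reached 1415 CPM in mouse 20, against 675 and 693 CPM in mice 19 and 21. Liver markers were highest in mouse 25 (498 CPM) and mouse 30 (193 CPM), against 39.4 to 156 CPM in the others, and adrenal markers in mouse 30 (266 CPM) and mouse 27 (37.5 CPM), against 3.84 to 6.93 CPM in the others.

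The level of each gene was compared with the others per kilobase of annotated exon (GENCODE M21, build GRCm38). On that scale, in noncystic Pkd2 +/+ kidneys, Acaa2, the mitochondrial 3-ketoacyl-CoA thiolase, stood highest at 513 CPM per kb (427 to 631 over 3 mice). Etfa, a subunit of the electron transfer flavoprotein, followed at 295 CPM per kb (270.2 to 325), and Acadl, the long-chain acyl-CoA dehydrogenase, at 225 CPM per kb (194 to 266). The highest peroxisomal gene was Cat, catalase, at 173 CPM per kb (162 to 194), which lay within the range of Acadm, the medium-chain dehydrogenase (152 to 194 CPM per kb). Phyh, which starts the alpha-oxidation of phytanic acid, had 163 CPM per kb (158 to 172). At the low end were Acox3 at 5.35, Acsm3 at 1.39 and Hacl1 at 0.547 CPM per kb. Acaa2, Etfa and Acadl also held the 3 highest places in cystic Pkd2 +/+ kidneys, at 207, 137 and 120.3 CPM per kb, and Acsm3 and Hacl1 the 2 lowest.

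Several of these counts are uncertain because reads can belong to another gene, and the strand setting of the counting is not given in the sources used here. Etfb (chr7:43444083-43457800) shares 58.2% of its exon bases with other annotated genes, chiefly the same-strand model Gm45233, and 66.3% of the 75-base words of its longest transcript occur in other genes. Hacl1 (chr14:31598730-31641286) shares 33.3% of exon bases, mainly with the same-strand model Gm49387, and had 9 to 71 reads per mouse. Acsm3 (chr7:119760923-119787513; 16 to 172 reads) shares 39.7% with Eri2 on the other strand, and Acadvl (chr11:70010183-70015411) 42.9% with Dvl2 on the other strand. Of the words of Scp2, 36.7% occur in its pseudogene Scp2-ps2, and the peroxisomal thiolases Acaa1b and Acaa1a share 28.5% and 12.5% of theirs with each other. Acad10 shares 12.4% of its words with Acad12. Over the 43 genes, 23 had under 1% of both kinds of sharing and 14 had over 5% of at least 1.

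RefSeq promoter sequences (GRCm38.p6, 250 bases before to 50 bases after each start site) matched 38 of the 43 genes by symbol. They were searched on both strands for forms bound by regulators known in fatty acid oxidation. The direct repeat AGGNCANAGGNCA, the form taken by PPAR with RXR, was in 0 of the 38, and in 0.451% of all 27025 genes with a promoter. The form TNAAGGTCA of the estrogen-related receptors was in 0 of the 38 and in 1.43% of all these genes. The form GTTAATNATTAAC of HNF1 was in 0 of the 38 and in 0.0111% of all. These counts say only that the letters are not in this window. At shares this low, a count of 0 among 38 genes does not set them apart. The hexamer AGGTCA ends the ERR form and is 1 of the forms that AGGNCA takes, and it was searched after the longer forms had given no match. It was in 9 of the 38 genes (23.7%) and in 4900 of 27025 genes with a promoter (18.1%). Windows of at most 30 bases around it are shown for 5 genes of different roles, with the hexamer or its reverse complement in capitals, 5′ to 3′ along the gene. Their first capital lay at -94 in Cpt1a (chr19:3323196-3323223, forward strand), -107 in Acsm1 (chr7:119617694-119617721, forward strand), -87 in Acadvl (chr11:70015499-70015526, reverse strand), -204 in Cat (chr2:103485341-103485368, reverse strand) and -110 in Acot12 (chr13:91741400-91741427, forward strand), with the start site as 0.
Cpt1a: agtttccttacTGACCTcctccccgcag
Acsm1: gcactgttttcTGACCTcttgactaaac
Acadvl: tggatcaccctAGGTCAggtagaataca
Cat: gtgactctcagAGGTCAgagaacaccag
Acot12: tcgtaggacccTGACCTctcacctccta
A match of this kind is a description and not a binding site.

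In cystic Pkd2 +/+ kidneys nearly all of the 43 genes stood at a lower level. They were chosen with earlier results of these data known, so their counts describe these genes and not the whole pathway. Compared with noncystic Pkd2 +/+ kidneys, 42 of the 43 genes fell (edgeR's quasi-likelihood test, Benjamini-Hochberg adjusted over 24642 genes, threshold 0.05), where 14.2% of all genes tested fell and 16.9% rose. The exception was Crot, the peroxisomal carnitine octanoyltransferase. The median log2 fold change of the 43 was -1.05 (range -2.46 to -0.12), against 0.02 for all genes tested. In 42 of the 43 the 3 cystic samples lay below the 3 noncystic ones without overlap, as they did for 19.7% of all genes. The summed level of the 43 was 9749.8, 11664 and 11267 CPM in the noncystic and 5706, 5082 and 5457 CPM in the cystic mice. Scaling libraries by their totals instead of TMM factors raised the median of all genes to 0.18 and changed the split of all genes from 4170 higher and 3495 lower to 6251 higher and 2468 lower, while 42 of the 43 genes fell, with a median of -0.89. These are whole kidneys, in which fewer cells of a type and less RNA per cell cannot be told apart.

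**Figure D1:**
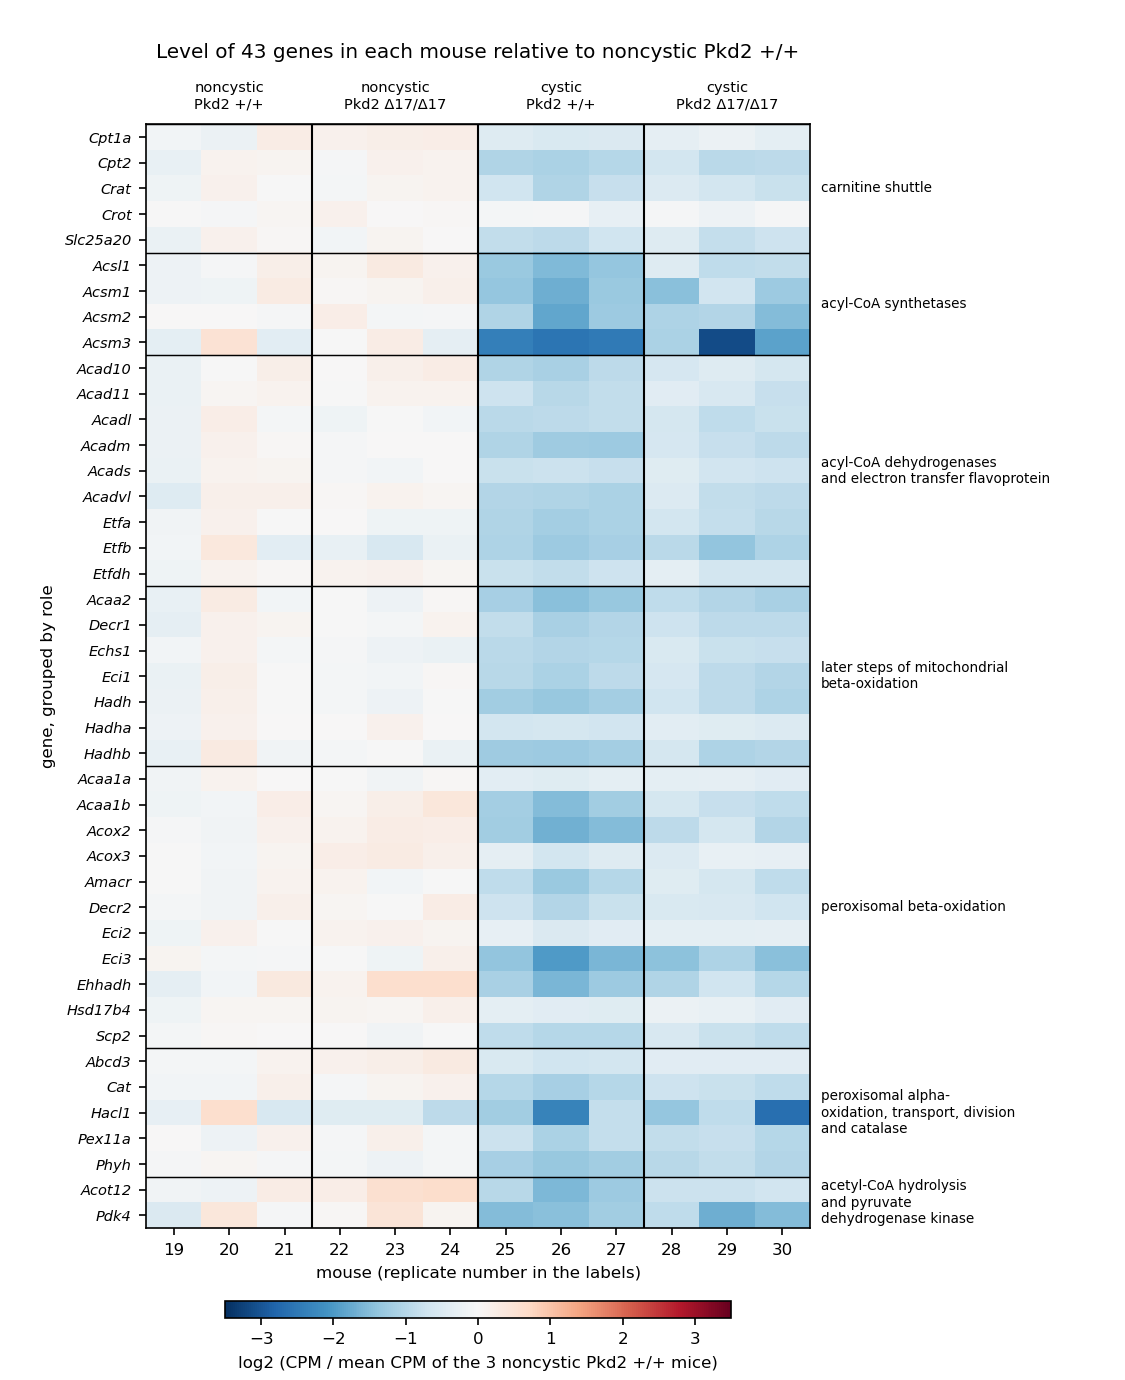
Each row is 1 of the 43 genes, grouped by role, each column 1 of the 12 mice in 4 groups, and the colour the log2 ratio of its CPM to the mean of the 3 noncystic Pkd2 +/+ mice (blue lower, red higher). The 6 columns of cystic mice are blue in nearly every row, paler in mice 28 to 30 than in mice 25 to 27, and Crot is near white throughout.

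With the Pkd2 motif deleted on both alleles, cystic kidneys again stood below noncystic ones. Of the 43 genes 41 fell, beside 10.2% of all genes that fell and 12.8% that rose, with a median log2 fold change of -0.78 against 0.00 over all genes. The groups did not overlap in 42 of the 43, as for 17.7% of all genes on the lower side. Crot and Hacl1 did not pass the test, at log2 fold changes of -0.16 (SE 0.08, adjusted p = 0.18) and -0.88 (SE 0.44, adjusted p = 0.18). With library totals the median of all genes was 0.15, the split of all genes went from 3164 higher and 2515 lower to 5334 higher and 1657 lower, and 40 of the 43 fell, with a median of -0.63. Summed levels were 11098, 11157 and 11329 CPM in the noncystic and 7112, 6444 and 6020.4 CPM in the cystic Δ17/Δ17 mice.

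**Figure D2:**
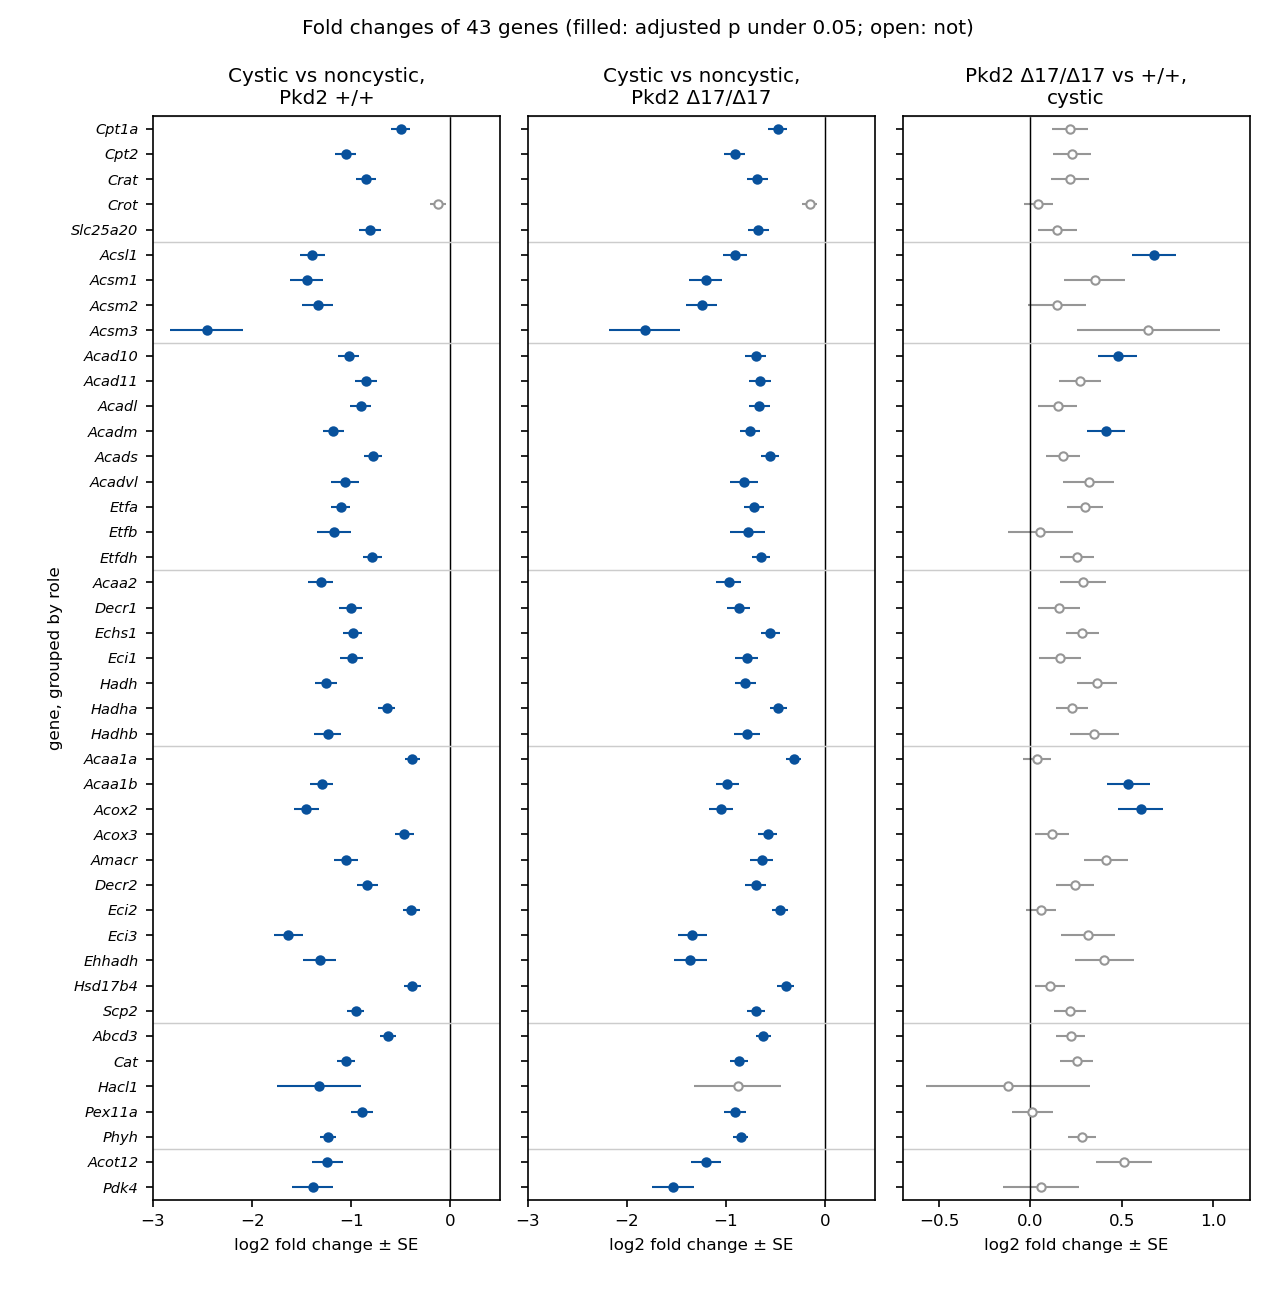
Log2 fold change (dot) and its standard error (line) of each of the 43 genes, grouped by role, for cystic against noncystic kidneys with Pkd2 +/+ (left) and Δ17/Δ17 (middle), and for Pkd2 Δ17/Δ17 against +/+ in cystic kidneys (right, on a narrower axis). Filled dots passed an adjusted p of 0.05: 42 on the left, 41 in the middle and 5 on the right, where all but Hacl1 lie above 0.

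All 4 acyl-CoA synthetases fell in both comparisons, with a median log2 fold change of -1.42 with Pkd2 +/+, the lowest of any role, and -1.23 with Δ17/Δ17. Acsm3, a medium-chain synthetase of the mitochondrial matrix, was at 5.45, 9.81 and 5.34 CPM in noncystic and 1.32, 1.17 and 1.22 CPM in cystic Pkd2 +/+ mice, a log2 fold change of -2.46 (SE 0.37, adjusted p = 6.9e-05). With Pkd2 Δ17/Δ17 it was at 6.87, 8.29 and 5.50 CPM in noncystic and 3.17, 0.783 and 1.88 CPM in cystic mice, and its log2 fold change was -1.82 (SE 0.36). The 3 cystic +/+ values lay close together, while mouse 29 was the lowest and mouse 28 the highest of the cystic Δ17/Δ17 mice. Acsl1, the long-chain synthetase that supplies most acyl-CoA for oxidation, was at 539, 596 and 701 CPM in noncystic and 247, 211 and 241 CPM in cystic +/+ mice, a 2.63-fold fall (log2 fold change -1.39, SE 0.12, adjusted p = 3.8e-07). Its levels were 655, 761 and 679 CPM in noncystic and 447, 332 and 339 CPM in cystic Δ17/Δ17 mice (-0.91, SE 0.12). Acsm1, which acts on medium-chain acids, went from 156, 158 and 213 CPM in noncystic to 68.6, 53.8 and 70.9 CPM in cystic +/+ mice (-1.45, SE 0.17). It went from 179.5, 189 and 200.3 CPM in noncystic to 64.1, 109.9 and 72.8 CPM in cystic Δ17/Δ17 mice (-1.20, SE 0.17), where mouse 29 stood above the other cystic mice. Acsm2, of the same family, went from 731, 731 and 696 CPM in noncystic to 346, 206 and 301 CPM in cystic +/+ mice (-1.34, SE 0.16), with mouse 26 lowest. The Δ17/Δ17 mice had levels from 851, 686 and 699 CPM in noncystic to 339, 352 and 251 CPM in cystic kidneys (-1.25, SE 0.16).

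Of the 5 genes of the carnitine shuttle, 4 fell in each comparison. Cpt1a, the outer membrane carnitine palmitoyltransferase at which malonyl-CoA controls entry, was at 326, 304 and 414 CPM in noncystic and 254, 241 and 243 CPM in cystic Pkd2 +/+ mice. Its log2 fold changes of -0.50 (SE 0.10) in +/+ and -0.48 (SE 0.10) in Δ17/Δ17 mice were among the smaller ones. Cpt2, its partner on the inner membrane, was at 119, 157 and 153 CPM in noncystic and 68.6, 66.6 and 71.1 CPM in cystic +/+ mice, with log2 fold changes of -1.06 (SE 0.10) and -0.91 (SE 0.10). Slc25a20, the carnitine-acylcarnitine translocase, fell by 0.81 on the log2 scale (SE 0.11) and Crat, carnitine acetyltransferase, by 0.85 (SE 0.10) in +/+ mice. Crot was at 107, 106 and 113 CPM in noncystic and 104, 107 and 89.0 CPM in cystic +/+ mice, and these ranges overlap. Its log2 fold change was -0.12 (SE 0.08, adjusted p = 0.28), and it turned positive, 0.036, when libraries were scaled by their totals instead of TMM factors. In Δ17/Δ17 mice Crot did not overlap, at 20.3 to 22.2 CPM per kb in noncystic and 17.7 to 19.5 in cystic kidneys.

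All 9 acyl-CoA dehydrogenases and subunits of the electron transfer flavoprotein system fell in both comparisons. Acadm was at 595, 759.7 and 702 CPM in noncystic and 332, 290.4 and 286 CPM in cystic Pkd2 +/+ mice, a 2.27-fold fall (log2 fold change -1.18, SE 0.11, adjusted p = 3.8e-07), and at 667, 696 and 687 CPM in noncystic and 454, 393 and 364 CPM in cystic Δ17/Δ17 mice (-0.76, SE 0.10). Across the chain lengths, the log2 fold changes in +/+ mice were -1.06 for Acadvl (very long chains), -0.90 for Acadl (long), -1.18 for Acadm (medium) and -0.78 for Acads (short). Acad10 was at 48.2, 56.3 and 64.8 CPM in noncystic and 27.4, 25.8 and 29.8 CPM in cystic +/+ mice (-1.03, SE 0.11), and Acad11 had a log2 fold change of -0.85 (SE 0.11). Both belong to the same enzyme family, with less well-known substrates. Etfa and Etfb, the flavoprotein's subunits, had log2 fold changes of -1.11 (SE 0.10) and -1.17 (SE 0.17), and Etfdh, which passes their electrons to ubiquinone, of -0.79 (SE 0.09). In Δ17/Δ17 mice the 9 genes ran from -0.82 to -0.56.

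The 7 genes of the later mitochondrial steps also fell in both comparisons. Acaa2 went from 647, 957 and 729 CPM in noncystic to 349, 282 and 311 CPM in cystic +/+ mice (log2 fold change -1.31, SE 0.13, adjusted p = 9.6e-07), with mouse 20 far above mice 19 and 21. Hadh, the short-chain 3-hydroxyacyl-CoA dehydrogenase, went from 514, 664 and 586 CPM in noncystic to 253, 232 and 256 CPM in cystic mice (-1.25, SE 0.11). In Δ17/Δ17 mice Acaa2 went from 765, 692 and 803 CPM in noncystic to 418, 379 and 353 CPM in cystic kidneys (-0.98, SE 0.13), and Hadh from 565, 519 and 580.1 to 365, 312 and 276 CPM in the same order (-0.80, SE 0.11). Hadha and Hadhb, which encode the 2 subunits of the trifunctional protein and lie side by side on chromosome 5 in opposite directions, had log2 fold changes of -0.64 (SE 0.09) and -1.24 (SE 0.14) in +/+ mice. With Δ17/Δ17 theirs were -0.47 (SE 0.09) and -0.79 (SE 0.13), again smaller for Hadha. The difference between the subunits was not tested. Echs1 (enoyl-CoA hydratase) and the isomerase and reductase that handle unsaturated chains, Eci1 and Decr1, had log2 fold changes of -0.99, -1.0 and -1.01 in +/+ mice.

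The genes of peroxisomal beta-oxidation fell by unequal amounts, and differences between genes were not tested. All 11 fell in both comparisons, from -1.63 to -0.39 on the log2 scale in Pkd2 +/+ mice. Eci3, an enoyl-CoA isomerase abundant in mouse kidney, was at 37.2, 32.9 and 34.1 CPM in noncystic and 13.3, 8.76 and 11.4 CPM in cystic +/+ mice, a 3.10-fold fall (-1.63, SE 0.15, adjusted p = 3.8e-07). It was at 34.7, 31.6 and 39.6 CPM in noncystic and 12.8, 16.5 and 12.6 CPM in cystic Δ17/Δ17 mice (-1.34, SE 0.14). Acox2, the oxidase of branched-chain and bile acid side chains, was at 70.4, 65.6 and 79.5 CPM in noncystic and 31.2, 22.4 and 25 CPM in cystic +/+ mice (-1.45, SE 0.12). Acox2 in Δ17/Δ17 mice was at 77.9, 85.9 and 84.0 CPM in noncystic and 38.0, 46.7 and 35.1 CPM in cystic kidneys (-1.05, SE 0.12). Ehhadh, the bifunctional enzyme of straight chains, was at 160.2, 188 and 254 CPM in noncystic and 91.7, 66.5 and 82.9 CPM in cystic +/+ mice (-1.32, SE 0.16) and at 220.4, 299 and 301 CPM in noncystic and 96.1, 123 and 101 CPM in cystic Δ17/Δ17 mice (-1.36, SE 0.16).

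The second bifunctional enzyme, Hsd17b4, which takes branched chains, had a log2 fold change of only -0.39 (SE 0.08) in +/+ and -0.40 (SE 0.08) in Δ17/Δ17 mice. The 2 thiolases also stood apart. Acaa1b was at 189, 194 and 244 CPM in noncystic and 92.0, 73.0 and 89.5 CPM in cystic +/+ mice (-1.30, SE 0.12) and at 218, 239.9 and 274 CPM in noncystic and 136, 120.3 and 113 CPM in cystic Δ17/Δ17 mice (-0.99, SE 0.12). In +/+ mice Acaa1a was at 154, 181 and 169 CPM in noncystic and 130.2, 124 and 132 CPM in cystic kidneys (-0.39, SE 0.08). With Δ17/Δ17 its log2 fold change was -0.32 (SE 0.08), a call lost with library totals. The counts of both thiolases are uncertain for the stretches that they share. Eci2 (-0.39) and Acox3 (-0.46) fell little, and Amacr (-1.05), Scp2 (-0.96) and Decr2 (-0.84) were in between.

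Of the 5 genes of alpha-oxidation, peroxisomal transport, division and catalase, all fell with Pkd2 +/+ and 4 with Δ17/Δ17. Phyh had the smallest adjusted p of all 43 genes in both comparisons. It was at 300.5, 326 and 299.9 CPM in noncystic and 138, 123 and 132 CPM in cystic Pkd2 +/+ mice (log2 fold change -1.23, SE 0.08, adjusted p = 1.6e-08). Hacl1, the lyase that follows it in alpha-oxidation, was at 2.23, 4.05 and 1.83 CPM in noncystic and 1.16, 0.539 and 1.51 CPM in cystic +/+ mice (-1.32, SE 0.42, adjusted p = 0.024), and its call was lost without mouse 20 (-0.94, adjusted p = 0.14) and without mouse 26 (-1.02, adjusted p = 0.091). Hacl1 in Δ17/Δ17 mice was at 2.02, 2.02 and 1.43 CPM in noncystic and 1.06, 1.47 and 0.433 CPM in cystic kidneys, and the groups overlap. Cat went from 427, 424 and 508 CPM in noncystic to 228, 202 and 226 CPM in cystic +/+ mice (-1.05, SE 0.09). Abcd3, which carries branched-chain acyl-CoA into the peroxisome, had a log2 fold change of -0.63 (SE 0.08), and Pex11a, which promotes peroxisome division, of -0.89 (SE 0.11).

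The remaining 2 genes act beside the pathway. Pdk4, the kinase that switches off pyruvate dehydrogenase and so spares glucose when fat is burned, was at 85.5, 161 and 119 CPM in noncystic and 43, 44.6 and 52.3 CPM in cystic Pkd2 +/+ mice (-1.39, SE 0.21, adjusted p = 6.4e-05). In Δ17/Δ17 mice it was at 126, 166 and 131 CPM in noncystic and 65.8, 37.6 and 42.4 CPM in cystic kidneys (-1.54, SE 0.21), so that it did not overlap between cystic and noncystic mice with either Pkd2 genotype. Acot12, a cytosolic acetyl-CoA hydrolase, was at 21.8, 21 and 28.4 CPM in noncystic and 12.1, 8.03 and 9.89 CPM in cystic +/+ mice (-1.24, SE 0.15) and at 27.8, 34.9 and 36.4 CPM in noncystic and 14.0, 14.0 and 14.9 CPM in cystic Δ17/Δ17 mice (-1.21, SE 0.15).

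**Figure D3:**
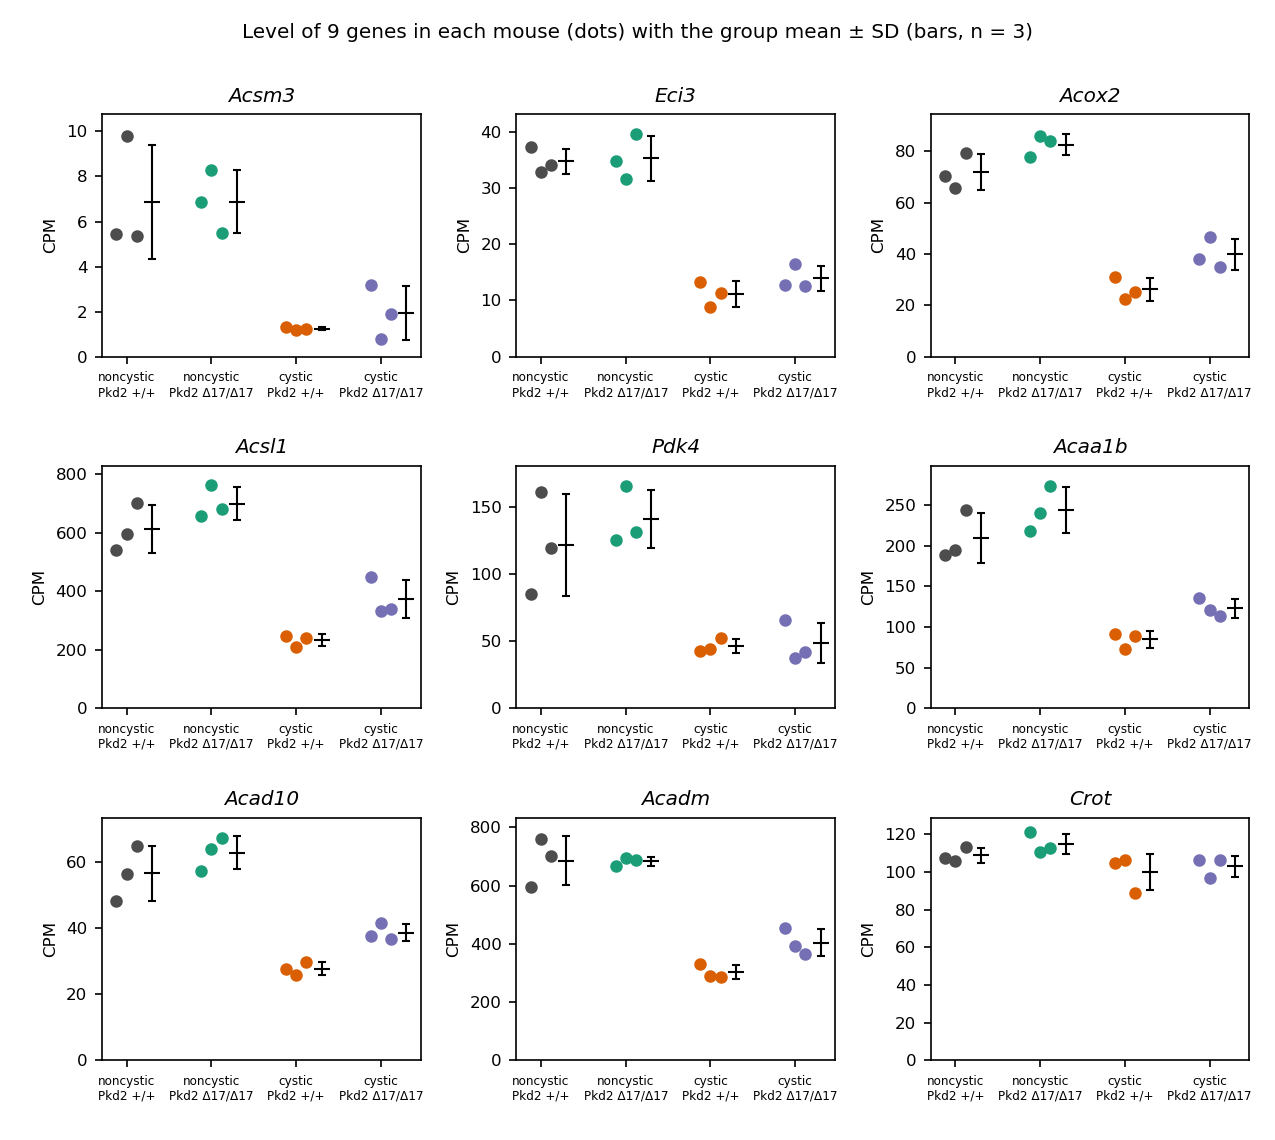
CPM of 9 of the genes in each mouse (dots), with the mean and SD of each group of 3 (black bars), on axes that start at 0. The 6 cystic mice lie below the 6 noncystic ones in 8 of the panels. For Crot cystic and noncystic mice overlap with Pkd2 +/+ but not with Δ17/Δ17. In Acsl1, Acox2, Acaa1b, Acad10 and Acadm the 3 cystic Pkd2 Δ17/Δ17 mice lie above the 3 cystic Pkd2 +/+ mice.

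Among cystic kidneys, those with the Pkd2 motif deleted had higher levels of 5 of the 43 genes than those with Pkd2 +/+, and lower levels of 0. Of all genes 1.19% rose and 1.04% fell in this comparison. Acsl1 rose 1.60-fold, from 247, 211 and 241 to 447, 332 and 339 CPM (log2 fold change 0.68, SE 0.12, adjusted p = 0.0096). Acox2 rose from 31.2, 22.4 and 25 to 38.0, 46.7 and 35.1 CPM (0.60, SE 0.12, adjusted p = 0.019), and Acaa1b from 92.0, 73.0 and 89.5 to 136, 120.3 and 113 CPM (0.54, SE 0.12, adjusted p = 0.027). Of the dehydrogenases, Acad10 rose from 27.4, 25.8 and 29.8 to 37.5, 41.4 and 36.7 CPM (0.48, SE 0.11, adjusted p = 0.028) and Acadm from 332, 290.4 and 286 to 454, 393 and 364 CPM (0.42, SE 0.10, adjusted p = 0.048). In each of the 5 genes the 3 Δ17/Δ17 mice lay above the 3 +/+ mice and below all noncystic mice.

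The other 38 genes did not pass the test. Their log2 fold changes, given as values, stood above 0 in 37, and over all 43 the median was 0.25, against 0.00 for all genes. In 23 of the 43 the Δ17/Δ17 mice lay above the +/+ mice without overlap, and in 8.79% of all genes. Among those that came near the threshold were Phyh (0.28, SE 0.08, adjusted p = 0.069), Amacr, the racemase of branched chains (0.42, SE 0.12, adjusted p = 0.088), Hadh (0.36, SE 0.11, adjusted p = 0.10) and Acot12 (0.51, SE 0.16, adjusted p = 0.11). Acsm3 (0.65, SE 0.39, adjusted p = 0.50) and Ehhadh (0.41, SE 0.16, adjusted p = 0.25) had larger standard errors. Nearest to 0 were Pex11a (0.01, SE 0.11), Crot (0.04, SE 0.08) and Pdk4 (0.06, SE 0.21), and only Hacl1 was below it (-0.12, SE 0.45). This comparison shares the cystic Pkd2 +/+ mice with that of cystic against noncystic +/+ kidneys, where they stand on the other side.

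The count of 5 depended on single mice. It was 0 without mouse 28, 1 without mouse 26, 27 or 29 in turn, and 7 without mouse 25 or 30 in turn. Calls over all genes moved too, from 293 higher to 83 without mouse 28, to 250, 70 and 75 without mouse 26, 27 and 29, and to 469 and 399 without mouse 25 and 30. The median over the 43 genes ran from 0.18 to 0.30. Among the cystic mice, mouse 28 was the highest of its group in 28 of the 43 genes, mouse 26 the lowest of its group in 35 and mouse 25 the highest of its group in 28. DESeq2 called 11 of the 43 higher, beside 564 of all genes higher and 564 lower, against 293 and 256 in edgeR's test.

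In noncystic kidneys the deletion left all 43 genes uncalled. Of all genes tested, 0% were called higher and 0.00406% lower. Pkd2 itself was not called there, at a log2 fold change of 0.40 (adjusted p = 0.77) without overlap between its genotypes. Of the 43, 4 had an unadjusted p under 0.05, beside 1555 of all 24642 genes, and DESeq2 called 0 of the 43. The median log2 fold change was 0.05, the median standard error 0.11. The highest values were those of Acot12 (0.48, SE 0.15, adjusted p = 0.77) and Ehhadh (0.45, SE 0.16, adjusted p = 0.77), with Acot12 at 21.8, 21 and 28.4 CPM in +/+ and 27.8, 34.9 and 36.4 CPM in Δ17/Δ17 mice. The lowest were those of Hacl1 (-0.56, SE 0.41) and Etfb (-0.34, SE 0.17). Groups did not overlap on the higher side in Abcd3 (0.22, SE 0.08), Acox3 (0.23, SE 0.09) and Hsd17b4 (0.12, SE 0.08), as in 5.69% of all genes, and on the lower side in Phyh (-0.10, SE 0.08), as in 5.09% of all genes.

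Whether the deletion acted differently in cystic and noncystic kidneys was tested as an interaction. None of the 43 genes passed it in edgeR's quasi-likelihood test, where 0.00812% of all genes were higher and 0.00406% lower, and DESeq2 called 1, Phyh (adjusted p = 0.036), beside 89 of all genes higher and 45 lower. Of the 43, 10 had an unadjusted p under 0.05, beside 2053 of all 24642 genes, and these shares were not compared by a test. The difference in log2 fold change, cystic minus noncystic, was 0.38 (SE 0.11, adjusted p = 0.29) for Phyh, 0.43 (SE 0.13, adjusted p = 0.34) for Echs1, 0.49 (SE 0.17, adjusted p = 0.45) for Acsl1, 0.42 (SE 0.15, adjusted p = 0.44) for Acadm and 0.45 (SE 0.15, adjusted p = 0.43) for Hadh. The largest value, that of Acsm3, was 0.64 (SE 0.51, adjusted p = 0.79), and the lowest, that of Pdk4, -0.15 (SE 0.29, adjusted p = 0.94). The median over the 43 genes was 0.21. Without a cutoff on low counts Acsl1 passed (adjusted p = 0.033), beside 294 of all genes higher and 272 lower. In the test used here, a different response in the 2 disease states was not shown for any of the 5 genes that rose in cystic kidneys.

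Other genes of the pathway and organelle were read from 3 further lists. Of 43 other tested genes of fatty acid oxidation, 36 fell and 1 rose in cystic Pkd2 +/+ kidneys, with a median log2 fold change of -0.78 (Acsm4 did not pass the cutoff). Of all genes tested 14.2% fell and 16.9% rose there. The smallest adjusted p among those that fell were those of Nudt19 (-1.29), a peroxisomal CoA diphosphatase, Acadsb (-1.01), the dehydrogenase of short branched chains, and Acot13 (-1.19), a thioesterase. The gene that rose was Cpt1c (0.91, SE 0.18, adjusted p = 8.2e-04), known as the neuronal form of Cpt1. The regulators Ppara, Ppargc1a and Esrra had log2 fold changes of -0.84 (SE 0.22), -0.76 (SE 0.10) and -0.66 (SE 0.08), and in Δ17/Δ17 mice -0.63 (SE 0.21), -0.54 (SE 0.10) and -0.43 (SE 0.08). All 3 of these genes passed the test in both comparisons, but Ppara with Δ17/Δ17 (adjusted p = 0.042) lost its call in 9 of 16 alternatives, among them library totals (adjusted p = 0.12) and the fits without mouse 22, 23, 24, 29 or 30 in turn, where the adjusted p reached 0.15.

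The genes of peroxisome biogenesis had a smaller median change. Of 15 such genes 10 fell in cystic Pkd2 +/+ kidneys and 5 in cystic Δ17/Δ17 kidneys, with medians of -0.36 and -0.24. Over all genes tested 14.2% fell and 16.9% rose with +/+, and 10.2% fell with Δ17/Δ17. Between the 2 cystic groups 1.19% of all genes rose. Pex6 (-0.49, SE 0.07), Pex7 (-0.58, SE 0.08) and Pex13 (-0.58, SE 0.09), which serve protein import, had the smallest adjusted p in +/+ mice. Of 29 other peroxisomal enzymes and membrane proteins, 19 fell and 0 rose, with a median of -0.58. They were led by Pxmp2 (-1.32, SE 0.11), a channel of the peroxisomal membrane, Ephx2 (-1.13, SE 0.09), soluble epoxide hydrolase, and Pecr (-1.42, SE 0.12), a trans-2-enoyl-CoA reductase. In the comparison of the 2 cystic groups, 3 of the other fatty acid oxidation genes rose, Acsl3 (0.40, SE 0.10, adjusted p = 0.040), Acadsb (0.30, SE 0.07, adjusted p = 0.027) and Bdh1 (0.48, SE 0.10, adjusted p = 0.018), as did 0 of the biogenesis genes and 1 of the other peroxisomal genes, Pxmp2 (0.53, SE 0.11, adjusted p = 0.020). Ppara (0.50, SE 0.22), Ppargc1a (0.25, SE 0.10) and Esrra (0.16, SE 0.08) did not pass the test there. Of 16 alternatives, 6 lost the call of Acsl3, 5 that of Acadsb, 5 that of Bdh1 and 6 that of Pxmp2.

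Markers of the proximal tubule moved in the same direction as the pathway, as did those of some other cell types given below. Of 29 markers, 28 fell in cystic Pkd2 +/+ kidneys and 25 in cystic Δ17/Δ17 kidneys, where 14.2% and 10.2% of all genes fell. The medians of the markers were -1.18 and -1.04. Between the cystic groups 1.19% of all genes rose and 1.04% fell. Of the 29 markers, 6 were higher with the deletion there and 0 lower, with a median of 0.33. Their summed level was 31206, 31918 and 33809 CPM in noncystic and 13369.6, 9940.0 and 10958 CPM in cystic +/+ mice, and 34659, 33479 and 35785 CPM in noncystic and 15589, 16556 and 13548 CPM in cystic Δ17/Δ17 mice. Slc34a1, the sodium phosphate cotransporter, had log2 fold changes of -1.33 (SE 0.17) in +/+ and -1.18 (SE 0.17) in Δ17/Δ17 mice, Lrp2 (megalin) of -1.26 (SE 0.15) and -0.77 (SE 0.14), and Slc5a2, the glucose transporter of the early segments, of -1.24 (SE 0.20) and -1.29 (SE 0.20). Hnf4a, a transcription factor of this segment, had -1.0 (SE 0.13) and -0.78 (SE 0.13). Slc7a13, a marker of the last segment, had -1.13 (SE 0.17) in +/+ mice, -0.13 (SE 0.16, adjusted p = 0.65) in Δ17/Δ17 mice (0.021 with library totals) and 0.83 (SE 0.17, adjusted p = 0.018) between the cystic groups, where Lrp2 also rose (0.64, SE 0.14) and Slc34a1 (0.32, SE 0.17), Slc5a2 (0.26, SE 0.20) and Hnf4a (0.30, SE 0.13) did not pass. Between the cystic groups 6 of 16 alternatives lost the call of Lrp2 and 5 that of Slc7a13.

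The mean log2 level of the 43 genes less that of the 29 proximal tubule markers was -1.23 ± 0.16 (SD, n = 3) in noncystic and -1.02 ± 0.12 (SD, n = 3) in cystic Pkd2 +/+ mice. In Δ17/Δ17 mice it was -1.35 ± 0.05 (SD, n = 3) and -1.14 ± 0.13 (SD, n = 3). The gap between the 43 genes and the markers was thus smaller in the cystic than in the noncystic group with either Pkd2 genotype. Single mice of the 2 groups overlapped with Pkd2 +/+ (-1.34 to -1.05 noncystic, -1.15 to -0.94 cystic) and lay close together with Δ17/Δ17 (-1.40 to -1.30 noncystic, -1.29 to -1.04 cystic). The difference was not tested. Within groups, mouse 26 had the lowest sum of both the 43 genes and the markers among cystic +/+ mice, and mouse 25 the highest of both. Mouse 30 had the lowest of both among cystic Δ17/Δ17 mice, but mouse 28 had the highest sum of the 43 genes and mouse 29 that of the markers. The orders also differed among noncystic mice, with mouse 20 highest for the genes and mouse 21 for the markers with Pkd2 +/+, and mouse 22 lowest for the genes and mouse 23 for the markers with Δ17/Δ17. The part of proximal tubule cell number in the levels was not tested.

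**Figure D4:**
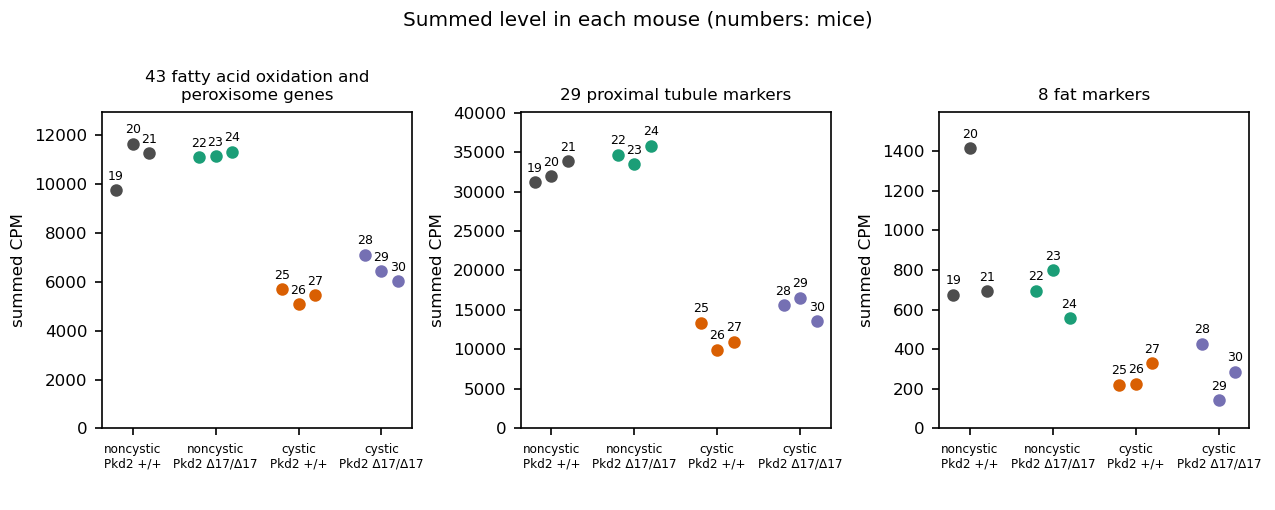
Summed CPM in each mouse (numbered dots) of the 43 genes, of 29 proximal tubule markers and of 8 fat markers, by group. Cystic mice lie below noncystic mice in all 3 panels, and mouse 20 stands far above the others in the fat markers.

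Markers of other cells and tissues also differed between cystic and noncystic kidneys. Over all genes tested, 14.2% fell and 16.9% rose with Pkd2 +/+, and 10.2% fell and 12.8% rose with Δ17/Δ17. Between the cystic groups 1.19% rose and 1.04% fell. In Pkd2 +/+ mice, 8 of 10 markers of the thick ascending limb and distal convoluted tubule fell and 1 rose, 7 of 8 podocyte markers fell and 1 rose, and 7 of 10 endothelial and 5 of 5 red blood cell markers fell. The median log2 fold changes of these lists were -0.99, -1.25, -0.65 and -1.41 in that order, beside -1.18 for the proximal tubule markers. All 10 macrophage and all 10 cell cycle markers rose, as did 7 of 13 collecting duct markers (3 fell), 6 of 10 fibroblast and matrix markers (2 fell) and 7 of 8 tubule injury markers. Of 8 fat markers 6 fell and 1 rose, of 6 liver markers 1 fell and 1 rose, and 0 of 5 adrenal and 0 of 4 skeletal muscle markers passed the test (Myh1 and Myh4 did not pass the cutoff). With Δ17/Δ17, 4 of 5 adrenal markers were called higher, 4 of 8 tubule injury markers rose and 1 fell, and 4 of 8 fat markers fell and 1 rose. The adrenal markers summed to 5.72, 4.55 and 266 CPM in cystic and 5.78, 6.93 and 4.84 CPM in noncystic Δ17/Δ17 mice. Only mouse 30 stood high, and the groups overlap. Between the cystic groups, 5 of the 10 macrophage markers, 4 of the 8 tubule injury markers and 2 of the 13 collecting duct markers fell with the deletion, while 2 of the 10 markers of the thick ascending limb and distal convoluted tubule, 1 podocyte and 1 endothelial marker rose. Markers of the thick ascending limb and distal convoluted tubule summed to 2997, 2907 and 2348 CPM in +/+ and 4013, 4288 and 3985 CPM in Δ17/Δ17 mice, without overlap. Macrophage markers summed to 488, 669.7 and 581 CPM in +/+ and 339, 343 and 469 CPM in Δ17/Δ17 mice, and tubule injury markers to 4547, 5608 and 4489.8 CPM in +/+ and 2652, 2609.6 and 4329 CPM in Δ17/Δ17 mice. The part of each of these cell types in the levels of the 43 genes was not tested.

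Brown fat is rich in fatty acid oxidation enzymes. Of the 8 fat markers, Lep rose in both comparisons, and between the cystic groups 4 were above 0, 4 below 0 and 0 passed the test. Ucp1, which defines brown fat, was at 114, 261 and 76.4 CPM in noncystic and 31.1, 20.8 and 41.5 CPM in cystic Pkd2 +/+ mice, and at 130.2, 117 and 57.3 CPM in noncystic and 76.3, 1.03 and 32.1 CPM in cystic Δ17/Δ17 mice, where mouse 24 lay below mouse 28. Cidea, another brown fat gene, was at 63.1, 176 and 77.0 CPM in noncystic and 8.48, 12.3 and 14.3 CPM in cystic +/+ mice. With Δ17/Δ17 it was at 71.7, 87.5 and 65.6 CPM in noncystic and 39.8, 1.42 and 14.6 CPM in cystic mice, so that noncystic and cystic mice did not overlap with either Pkd2 genotype. In mouse 20, which had the most of both, 26 of the 43 genes were the highest of their group and 10 the lowest. Mice 25 and 28 were each the highest of their group in 28 of the 43. Fat markers summed to 220 CPM in mouse 25, the lowest of its group, and to 429 CPM in mouse 28, the highest of its group. Without mouse 20, 41 of the 43 genes fell in cystic +/+ kidneys, all but Crot and Hacl1, with a median of -0.98. In mouse 29, where Ucp1 was nearly absent, 12 of the 43 genes were the highest of the cystic Δ17/Δ17 mice and 13 the lowest. Acox2 and Acad10 were among the highest, and Acsl1 and Acadl among the lowest. The part of fat in these levels was not tested.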

How the data were processed

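RNA-seq was done on total RNA of flash-frozen kidneys from 12 mice, 3 in each of 4 groups, grouped by the labels. The authors trimmed reads with Trim Galore 0.6.3, aligned them to GRCm38 with STAR 2.5.3a and deposited raw read counts per gene of Ensembl models; the strand setting is not given in the sources used here. The 343 genes with an identifier and no symbol held 0.0225% of reads and were kept in the fits. From the deposited counts, genes with an average log2 CPM of at least -3 were kept (24642 of 54532), scaled with TMM factors and tested with edgeR 4.0.16 (quasi-likelihood F test, 1 mean per group, 8 residual degrees of freedom) in R 4.3.3, with Benjamini-Hochberg adjustment over all genes kept and a threshold of 0.05. The study's own method, limma-trend (limma 3.58.1) on library totals, DESeq2 1.42.0, other scalings and cutoffs, and fits without each mouse were alternatives. The test was checked on simulated counts. No 2 libraries of the same group agreed within sampling noise, and pairs across groups were not checked. At 18800307 to 24453033 reads per library, all 43 genes could be tested.

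The 43 genes, the other gene lists and the marker lists were chosen with earlier results of these data known, and no list received a test of its own. Values per mouse were given for up to 12 genes with the largest called change between cystic and noncystic Pkd2 +/+ kidneys, up to 6 in each other comparison, and at least 1 of each role. From each other pathway list the 3 genes with the smallest adjusted p in each direction were named. Ppara, Ppargc1a, Esrra, Slc34a1, Lrp2, Slc5a2, Slc7a13 and Hnf4a were named whatever they did, and some other genes of these lists are not reported here. Values per mouse of Cpt2, Cat, Acaa1a, Ucp1 and Cidea, the uncalled genes between the 2 cystic groups, and the hexamer AGGTCA were chosen after their values were seen. Exon overlap and shared 75-base words came from GENCODE M21, and promoters from RefSeq. Protein sequences were not used here.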

Additional observations from a re-analysis of the deposited data

How the results depend on the processing

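Between cystic and noncystic kidneys, the count of genes that fell was 41 to 42 with Pkd2 +/+ and 40 to 41 with Δ17/Δ17 under every alternative run, and 41 to 42 and 41 without each mouse. With at least 10 counts in every mouse, Hacl1 was not in the fit. Of 687 refitted values in each comparison, 681 and 685 kept their direction and side of the threshold. The log2 ratio of the summed level moved with library totals from -1.01 to -0.85 with +/+ and from -0.78 to -0.63 with Δ17/Δ17. The comparison of the 2 cystic groups was less stable. Its 5 calls became 11 with DESeq2, 13 without a cutoff on low counts, 3 with the compared groups only, 1 at an adjusted p of 0.01, and 0 to 7 without each mouse. Over all genes, the same settings gave 564 higher and 564 lower, 815 and 824, 99 and 68, and 78 and 41, against 293 and 256. In noncystic kidneys 0 became 1 without a cutoff, where 72 of all genes were higher and 52 lower. For the interaction 0 became 1 with DESeq2 (89 of all genes higher and 45 lower) and 1 without a cutoff (294 and 272), against 2 and 1. The cause of these shifts was not tested.

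Directions reversed in values near 0 that passed no test. Crot between cystic and noncystic +/+ kidneys became 0.033 with limma-trend and 0.036 with library totals, and Slc7a13 with Δ17/Δ17 0.015 and 0.021. Without each mouse, that value of Slc7a13 ran from -0.23 to 0.00803. Between the cystic groups, Hacl1 ran from -0.52 to 0.23, Pex11a from -0.088 to 0.082, Pdk4 from -0.22 to 0.22 and Crot from -0.034 to 0.090, and the interaction of Pdk4 from -0.43 to 0.054. Depth limits Hacl1 (9 to 71 reads) and Acsm3 (16 to 172 reads) most. No paired analysis was run, because the labels used here name no litters and the 12 numbers link no samples across groups. Shared litters are not excluded.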
